A study of Mus musculus with 6 samples.

Results

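The RNA levels of 55 G2 and mitosis genes were followed in mouse neutrophils that had met bacterial lipopolysaccharide (LPS) with or without resveratrol. The genes were taken from a named list of mitotic regulators and structural proteins and were looked up in the deposited count table by Ensembl gene ID. The list was chosen with earlier results of these data known. All 55 were among its 25663 IDs, and all 55 were among the 13468 genes with enough counts to be tested. Neutrophils had been sorted from C57BL/6 mouse bone marrow as CD45+ CD11b+ Ly6G+ cells, with no genetic change named. The LPS+resveratrol group had both agents for 6 hours, with resveratrol given in the labels as 25 μmol without a volume, and held 3 samples. The LPS group had LPS alone for the same 6 hours and held 3 samples. The design text mentions duplicates although each group has 3 labelled samples; whether the study used every one of them is not given in the sources used here. All 6 samples therefore carry LPS, and a comparison with cells without LPS was not possible here. The labels do not say whether replicates came from separate mice or cultures, so p-values here weigh a difference only against the scatter of these particular samples, part or all of which may be technical.

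G2 and mitosis genes encode the machinery that takes a cell from replicated DNA to 2 daughter cells. In dividing cells their transcripts build up together late in the cycle: the DREAM complex holds their promoters silent in resting cells, and the MuvB core with B-MYB and FOXM1 switches them on in G2. Many such promoters carry CCAAT boxes, bound by the factor NF-Y, and a cell cycle homology region (CHR), bound by the MuvB core. In bone marrow, neutrophil precursors divide until about the myelocyte stage, and mature neutrophils do not divide.

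To show these elements, 6 promoters are printed: those of the 5 members with the lowest log2 fold changes, LPS+resveratrol over LPS, among those with a RefSeq promoter, and that of Mad2l1, whose level was nearly the same in both groups. The stretches run from 150 bases before the RefSeq start to 10 bases after it, 5′ to 3′ on the gene's strand (RefSeq, GRCm38.p6). Capitals mark CCAAT boxes, which read ATTGG when they lie on the opposite strand, and the CHR, which was searched as TTTGAA or as TTCGAA on either strand. Ccnb1 lies at chr13:100786477-100786636 on the minus strand, Ccnb2 at chr9:70421545-70421704 on the minus strand and Cdc20 at chr4:118437334-118437493 on the minus strand. Ube2c lies at chr2:164769779-164769938, Plk1 at chr7:122159285-122159444 and Mad2l1 at chr6:66535071-66535230, all on the plus strand.
Ccnb1: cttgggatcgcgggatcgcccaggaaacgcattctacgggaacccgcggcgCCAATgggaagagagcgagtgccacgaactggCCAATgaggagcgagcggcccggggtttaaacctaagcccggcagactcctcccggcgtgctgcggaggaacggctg
Ccnb2: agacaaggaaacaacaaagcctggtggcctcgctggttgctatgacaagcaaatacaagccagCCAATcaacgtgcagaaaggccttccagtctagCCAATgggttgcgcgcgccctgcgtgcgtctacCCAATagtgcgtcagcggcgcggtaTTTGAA
Cdc20: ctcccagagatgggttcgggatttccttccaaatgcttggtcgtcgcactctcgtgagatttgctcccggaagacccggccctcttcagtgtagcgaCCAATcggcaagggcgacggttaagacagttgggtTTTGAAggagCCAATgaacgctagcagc
Ube2c: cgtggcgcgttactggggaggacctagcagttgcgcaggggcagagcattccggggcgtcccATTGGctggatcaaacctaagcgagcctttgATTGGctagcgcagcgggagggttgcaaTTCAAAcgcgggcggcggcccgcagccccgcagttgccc
Plk1: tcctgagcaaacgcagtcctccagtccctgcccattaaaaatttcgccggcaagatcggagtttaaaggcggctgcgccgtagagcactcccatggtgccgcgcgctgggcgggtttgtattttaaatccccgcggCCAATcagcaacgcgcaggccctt
Mad2l1: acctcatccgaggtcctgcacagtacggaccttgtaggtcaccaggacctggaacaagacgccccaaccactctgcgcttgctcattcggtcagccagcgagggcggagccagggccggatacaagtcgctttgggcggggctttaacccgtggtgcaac
The Ccnb1 stretch holds a pair of CCAAT boxes whose first bases lie 32 bases apart and no CHR in either searched form. Other forms of the CHR were not searched in any promoter. Ccnb2 has 3 CCAAT boxes, beginning 87, 54 and 21 bases before the start, and a CHR that begins 25 bases after the first base of the nearest box. Cdc20 has a CHR between its CCAAT boxes, Ube2c has a pair of boxes 31 bases apart with a CHR downstream, and Mad2l1 has neither element. Plk1 has 1 CCAAT box before the start, and its CHR begins at base 31 after the start, beyond the printed stretch.

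Of the 55 genes, 46 matched a RefSeq window running from 250 bases before the start to 50 after; Aurkb, Ccna2, Cdc25c, Cdca2, Dlgap5, Kif20a, Pif1, Smc4 and Tpx2 had none. Searched on both strands, CCAAT was found in 35 of the 46 windows (76.1%), against 41.1% of 27025 genes with a window and 42.9% of the 9452 tested genes with one. A CHR was found in 34 of the 46 (73.9%), against 21.7% of all genes with a window and 16.9% of tested ones. Both elements stood in 30 members (65.2%), against 9.65% of all genes and 8.26% of tested genes, and in 1 member, Cdca8, a CCAAT box and a CHR overlap. At least 2 CCAAT boxes stood in 26 members (56.5%, against 13.3% of all genes), and in 9 members a neighbouring pair lay 30 to 35 bases apart. In 30 members a CHR began within 50 bases of the start. For this pair spacing and this CHR position the share over all genes was not computed. These counts describe letters in the windows, and genes with more than 1 window were counted by the window with the most matches. Of the 11 members with a window that fell with 6 libraries (fits below), 10 had CCAAT and 10 a CHR, against 25 and 24 of the 35 that did not pass. Of the 5 that did not fall without LPS+resveratrol replicate 1, 4 had CCAAT, 2 had a CHR and 1, Mad2l1, had neither. Tacc3, Birc5, Nuf2, Knstrn, Pttg1 and Nusap1 also had neither element, and all fell without that replicate. Whether the elements go with the fall was not tested.

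**Figure D1:**
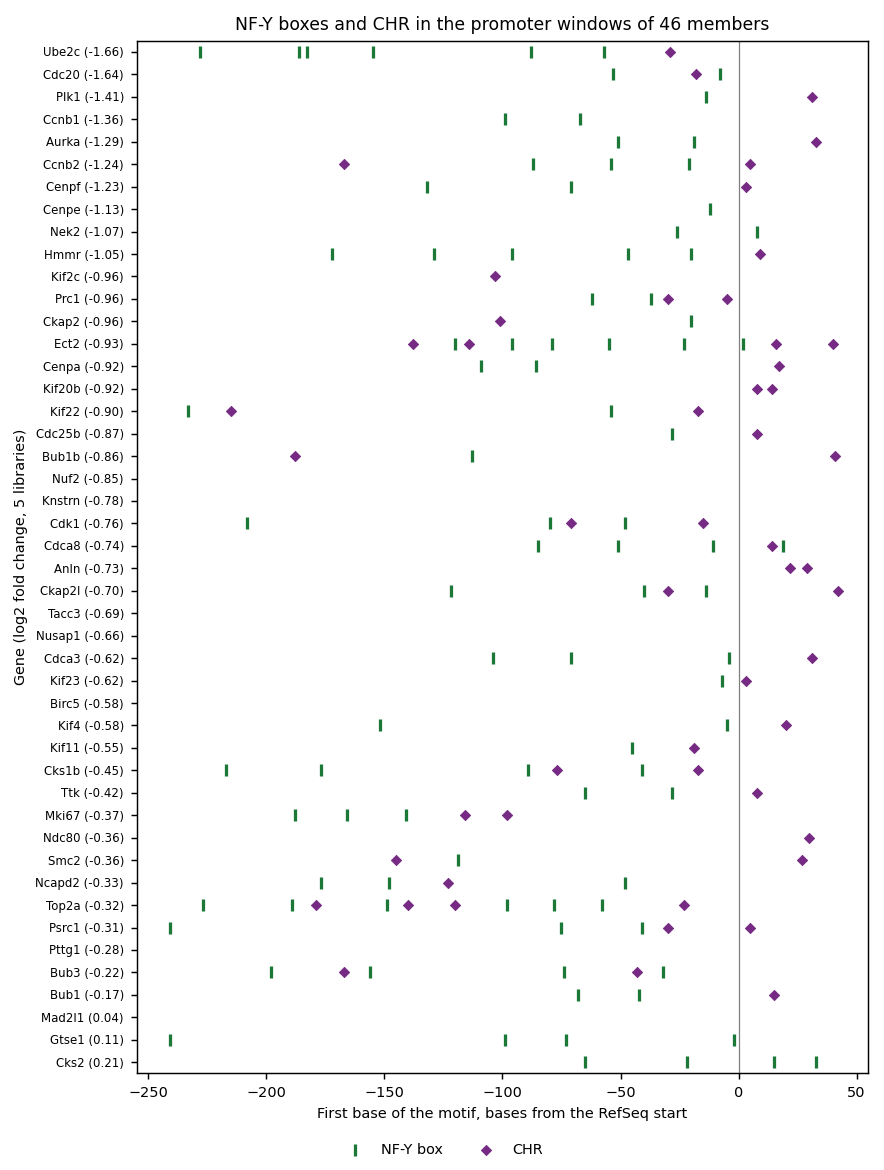
Position of each CCAAT box (NF-Y box, green bars) and CHR (purple diamonds) in the promoter windows of 46 members, in bases from the RefSeq start, with genes ordered from the lowest to the highest log2 fold change of LPS+resveratrol over LPS in 5 libraries (in brackets). For 5 genes with 2 windows, matches of both are drawn. Marks lie mainly between 100 bases before the start and 50 after it, and 7 genes, Mad2l1 among them, have no mark.

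Counts totalled 18478832 to 19928153 per LPS+resveratrol library and 18141352 to 18687052 per LPS library. LPS+resveratrol replicate 1 differed from the rest: its log2 CPM (counts scaled to a common library total, with TMM factors) over all tested genes correlated at 0.954 to 0.964 with theirs, while the others correlated at 0.984 to 0.992 with one another. Counts of members that passed are therefore given with all 6 libraries and with the 5 left without it. All 14 members that fell with 6 libraries also fell with 5 (adjusted p of at most 4.79e-06), and members described below by their share of the LPS level without replicate 1 alone did not pass with it. Mature neutrophil markers were abundant in every library, and S100a9, a neutrophil calcium-binding protein, stood at 8125 CPM in LPS+resveratrol replicate 1 and 21248 to 23362 CPM in the other libraries. In bulk RNA, fewer cells of a type and less RNA per cell cannot be told apart, so a lower level of a mitotic transcript may mean either.

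Transcripts of G2 and mitosis genes were lower in neutrophils given resveratrol with LPS than in those given LPS alone. Because the list was chosen with earlier results of these data known, shares over all tested genes stand beside it as description only. With 6 libraries, 14 of 55 members fell and 0 rose (edgeR, quasi-likelihood F test, threshold 0.05 on the p adjusted by Benjamini-Hochberg over all tested genes), while 1.17% of all tested genes fell and 0.668% rose. At an unadjusted p under 0.05, 35 members passed, as did 2682 of all 13468 tested genes. Without LPS+resveratrol replicate 1, 50 members fell and 1, Cks2, rose, while 13.3% of all tested genes fell and 12.1% rose. When replicate 1 stayed in and 1 of the 5 others was dropped, 0 members and 0 of all tested genes passed in edgeR, with 26 to 30 members and 1564 to 2721 of all tested genes at an unadjusted p under 0.05. The median log2 fold change (LPS+resveratrol over LPS) over the members was -0.60 with 6 libraries and -0.73 with 5, against -0.0040 and -0.0071 over all tested genes. Every LPS+resveratrol library lay below every LPS library for 36 of 55 members, a pattern met by 15.9% of all tested genes. With replicate 1 left out, this held for 50 of 55 members and for 24.5% of all tested genes.

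Summed over the 55 members, the level was 2065, 1502 and 1386 CPM in LPS+resveratrol replicates 1, 2 and 3, against 2149, 2119 and 2077 CPM in the LPS libraries. Replicate 1 thus came close to the LPS libraries in this sum. Without Mki67, Smc4 and Top2a, chosen after their values were seen, the sums were 1082, 974 and 906 CPM with LPS+resveratrol, against 1513, 1486 and 1454 CPM with LPS alone. The median difference of a member from its own LPS mean was -0.38, -0.63 and -0.83 log2 units in LPS+resveratrol replicates 1, 2 and 3, against 0.02, 0.00 and -0.02 in the LPS libraries. All 3 LPS+resveratrol libraries were thus low for the median member, and replicate 1 was the least so.

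**Figure D2:**
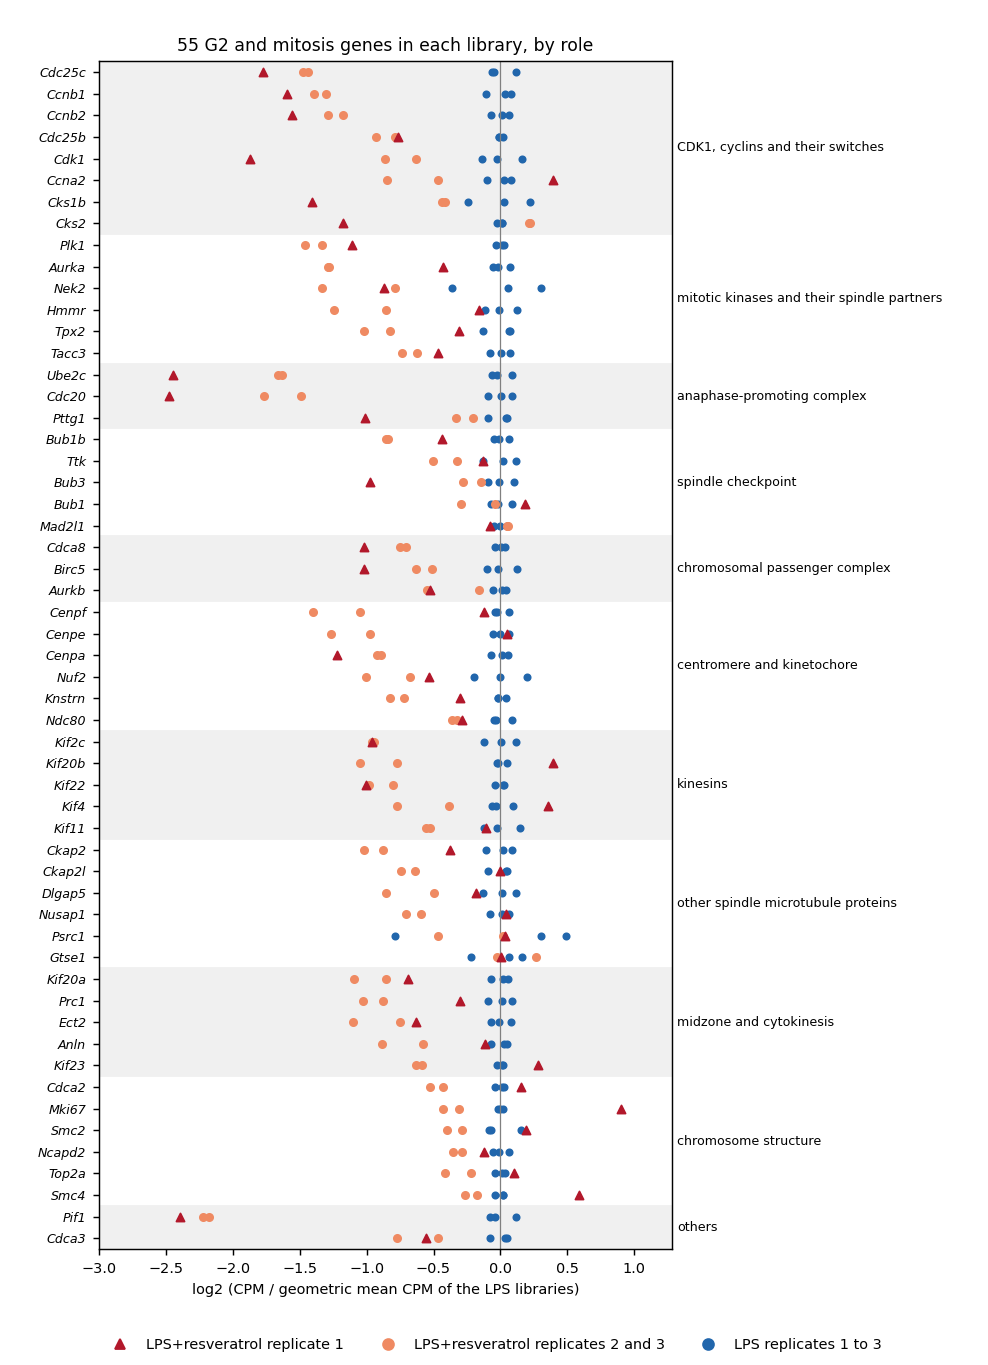
Each of the 55 members in each library, as log2 of its CPM over the geometric mean CPM of the LPS libraries, grouped by role. Orange and red marks are LPS+resveratrol libraries (red triangle, replicate 1), and blue marks are LPS libraries. Orange marks lie left of the blue ones in 50 of 55 genes, while the red triangle lies left of the blue marks in some roles and at or right of them in others.

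CDK1 and its cyclins start mitosis. Of the 8 genes of this group, 4 fell with 6 libraries, and 7 fell and 1 rose with 5. Beside these counts and those of the roles below, 1.17% of all tested genes fell with 6 libraries and 13.3% with 5. Where members of these roles are said not to overlap between groups, 15.9% of all tested genes had every LPS+resveratrol library below every LPS library. Ccnb1, the B-type cyclin that activates CDK1 at mitotic entry, had 12.5, 15.3 and 14.4 CPM in the LPS+resveratrol libraries, against 38.7, 39.9 and 34.98 CPM in the LPS libraries. This was 37.2% of the LPS level, a log2 fold change of -1.43 ± 0.125 (SE) with an edgeR adjusted p of 0.0158. The highest LPS+resveratrol library lay far under the lowest LPS library. Ccnb2, the other B-type cyclin, had 11.8, 15.3 and 14.2 CPM with LPS+resveratrol, against 32.9, 34.8 and 36.2 CPM with LPS (39.7% of the LPS level, adjusted p = 0.0191). Cdc25c and Cdc25b, phosphatases that strip inhibitory phosphates from CDK1, fell too. Cdc25c had 1.37, 1.73 and 1.68 CPM in LPS+resveratrol libraries, against 4.52, 4.48 and 5.08 CPM in LPS libraries (34.05% of the LPS level, adjusted p = 0.0229). Cdc25b had 10.2, 9.98 and 9.07 CPM, against 17.2, 17.1 and 17.5 CPM in LPS libraries (56.4%, adjusted p = 0.0271). The groups did not overlap for any of these 4 genes, and replicate 1 lay with its group. The third phosphatase of that family, Cdc25a, is no member and was chosen after its values were seen; it did not pass in either fit, with log2 fold changes of 0.27 (edgeR adjusted p = 0.335) and 0.20 (0.137). Of the Cdc25c exon bases, 12.7% overlap Gm3550 on the opposite strand, and since strand use in counting is not given, reads of the pair cannot be told apart.

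The CDK1 catalytic subunit and its small partners showed a different spread. Cdk1 had 7.82, 18.5 and 15.8 CPM with LPS+resveratrol, against 32.0, 28.2 and 26.0 CPM with LPS (values chosen after they were seen), so that no LPS+resveratrol library reached an LPS library. Its log2 fold change was -1.03 ± 0.291 with 6 libraries (edgeR adjusted p = 0.127) and -0.76 ± 0.0987 with 5 (adjusted p = 2.95e-07). Cks2, a small CDK-binding subunit, had 29.5 CPM in LPS+resveratrol replicate 1 and 77.6 and 77.4 CPM in replicates 2 and 3, against 67.4, 67.1 and 65.7 CPM in LPS libraries. It rose in the fit without replicate 1 (log2 fold change 0.21 ± 0.0617, adjusted p = 0.0106), and its sign was the opposite with all 6 (-0.12 ± 0.332, adjusted p = 0.865). Its relative Cks1b stood at 61.8% of the LPS level with 6 libraries (adjusted p = 0.225) and 73.4% with 5 (adjusted p = 0.00743). Ccna2, the cyclin of S phase and G2, had 54.3 CPM in LPS+resveratrol replicate 1 and 30.1 and 22.99 CPM in replicates 2 and 3, against 38.7 to 43.7 CPM with LPS (values chosen after they were seen). It fell without replicate 1 (log2 fold change -0.66, adjusted p = 5.21e-06) and did not pass with it (-0.21, adjusted p = 0.703), and 12.5% of its exon bases overlap Exosc9 on the opposite strand.

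Ubiquitylation by the anaphase-promoting complex ends mitosis. Ube2c, the E2 enzyme that works with that complex, had 7.77, 13.6 and 13.4 CPM with LPS+resveratrol, against 40.5, 44.8 and 41.5 CPM with LPS. Cdc20, the activator that brings the complex its substrates, had 7.28, 14.4 and 11.9 CPM with LPS+resveratrol, against 37.8, 43.0 and 40.6 CPM with LPS. Neither gene overlapped between groups, and replicate 1 was the lowest library for both. Over 6 libraries Ube2c was at 27.4% of the LPS level (log2 fold change -1.87 ± 0.216, edgeR adjusted p = 0.0213) and Cdc20 at 27.6% (-1.86 ± 0.235, adjusted p = 0.0230). Ube2c shares 22.8% of its exon bases with Tnnc2 on the opposite strand. Pttg1, the securin that the complex destroys to free separase, had 34.6, 55.6 and 60.6 CPM with LPS+resveratrol, against 72.5, 72.1 and 65.5 CPM with LPS. It fell without replicate 1 (log2 fold change -0.28 ± 0.0683, adjusted p = 0.00201) and did not pass with it (-0.48 ± 0.204, adjusted p = 0.252).

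**Figure D3:**
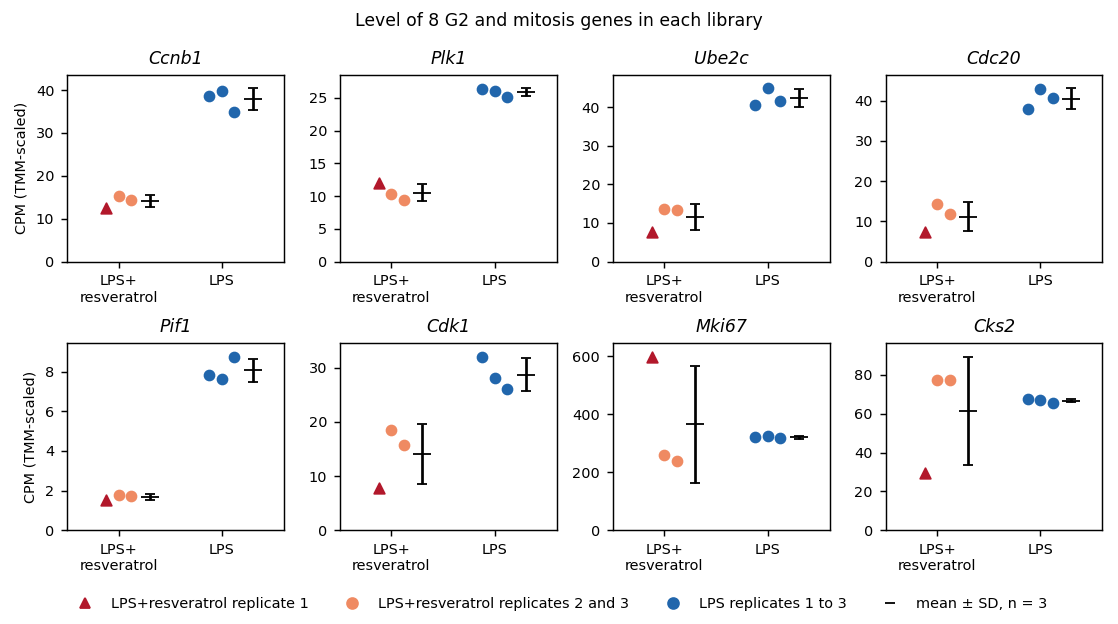
CPM of 8 members in each library, with LPS+resveratrol at the left and LPS at the right of each panel, each axis starting at 0; bars are the mean ± SD (n = 3). Ccnb1, Plk1, Ube2c, Cdc20, Pif1 and Cdk1 do not overlap between groups, while replicate 1 (red triangle) is the highest library for Mki67, at 597 CPM, and the lowest for Cks2, at 29.5 CPM.

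The mitotic kinases and the spindle proteins they act with all fell in the fit without replicate 1 (6 of 6), and 1 of 6 fell with it. Plk1, the polo-like kinase that acts from mitotic entry to cytokinesis, had 11.98, 10.3 and 9.38 CPM with LPS+resveratrol, against 26.3, 26.0 and 25.2 CPM with LPS. At 40.8% of the LPS level, its log2 fold change was -1.29 ± 0.130 (edgeR adjusted p = 0.0191), and 7.09% of its exon bases overlap Gm44985 on the opposite strand. Tpx2, which activates Aurora A on spindle microtubules, had 43.0, 30.2 and 26.4 CPM with LPS+resveratrol, against 55.8, 56.0 and 48.7 CPM with LPS. Its adjusted p was 0.121 with 6 libraries and 5.71e-11 with 5, although the groups did not overlap in either. Aurka, Aurora A itself, stood at 52.0% of the LPS level with 6 libraries (adjusted p = 0.103) and at 40.8% with 5 (adjusted p = 1.09e-11). Hmmr, a spindle microtubule protein, was at 48.3% without replicate 1, and Nek2, a kinase that parts the centrosomes, at 47.7%. Tacc3, an Aurora A substrate that steadies kinetochore fibres, was at 62.0%, with 8.14% of its exon bases shared with Tmem129 on the opposite strand. For all 6 genes every LPS+resveratrol library lay below every LPS library.

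The chromosomal passenger complex corrects faulty attachments of chromosomes to the spindle. Cdca8 (borealin) had 13.6, 16.4 and 16.9 CPM with LPS+resveratrol, against 26.8, 27.7 and 28.2 CPM with LPS, and fell to 56.7% of the LPS level (log2 fold change -0.82 ± 0.124, edgeR adjusted p = 0.0305). Birc5 (survivin) was at 61.3% with 6 libraries (adjusted p = 0.0807) and 66.8% with 5 (adjusted p = 2.72e-05). Aurkb, the kinase of the complex, was at 75.7% with 6 (adjusted p = 0.195) and 78.4% with 5 (adjusted p = 0.0137). None of the 3 genes overlapped between groups.

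Centromere and kinetochore genes fell in 1 of 6 cases with 6 libraries and in 6 of 6 with 5. Cenpa, the histone H3 variant that marks centromeres, had 16.2, 19.97 and 20.3 CPM with LPS+resveratrol, against 39.4, 36.1 and 38.1 CPM with LPS. Its log2 fold change was -1.01 ± 0.126 (edgeR adjusted p = 0.0229). Cenpe, a kinetochore kinesin, had 49.7 CPM in LPS+resveratrol replicate 1 and 24.4 and 19.9 CPM in replicates 2 and 3, against 50.3, 47.8 and 46.1 CPM with LPS. Replicate 1 sat among the LPS libraries and the other 2 well under all of them, with an adjusted p of 0.325 with 6 libraries and 1.49e-12 with 5. Cenpf, a large kinetochore protein whose values were chosen after they were seen, had 43.1, 22.7 and 17.8 CPM with LPS+resveratrol, against 45.7, 49.0 and 46.2 CPM with LPS. The microtubule-binding Ndc80 and its partner Nuf2 stood at 78.1% and 55.6% of the LPS level without replicate 1, and Knstrn, a kinetochore-associated protein, at 58.3%.

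The spindle checkpoint delays anaphase until every chromosome is attached. In edgeR, 0 of its 5 genes passed with 6 libraries and 3 of 5 fell with 5. With 6 libraries, 1 of them and 2682 of all 13468 tested genes had an unadjusted p under 0.05. Bub1b (BubR1) had 28.9, 21.6 and 21.9 CPM with LPS+resveratrol, against 37.7, 38.8 and 40.7 CPM with LPS, with an edgeR adjusted p of 0.0663 with 6 libraries and 2.01e-10 with 5. Bub3 had 29.0, 51.5 and 46.9 CPM with LPS+resveratrol, against 61.3, 56.7 and 53.4 CPM with LPS (adjusted p = 0.307 with 6 libraries, 0.0238 with 5). Neither gene overlapped between groups. The kinase Ttk (Mps1) was at 74.6% of the LPS level without replicate 1 (adjusted p = 0.0329). Bub1, the kinase partner of Bub3, did not pass in either fit (97.3% and 88.6% of the LPS level). Mad2l1, whose protein binds and blocks Cdc20, averaged 20.5 ± 1.02 CPM with LPS+resveratrol and 20.4 ± 0.695 CPM with LPS (SD, n = 3 each), and its log2 fold change was 0.01 ± 0.107.

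Kinesin motors of the spindle fell in 2 of 5 cases with 6 libraries and in 5 of 5 with 5. Kif22, a motor that rides on chromosome arms, had 11.5, 13.2 and 11.7 CPM with LPS+resveratrol, against 23.4, 23.5 and 22.5 CPM with LPS (edgeR adjusted p = 0.0229). Kif2c, which takes microtubule ends apart at centromeres, had 7.06, 7.12 and 7.03 CPM with LPS+resveratrol, against 13.8, 14.9 and 12.6 CPM with LPS (adjusted p = 0.0259). Kif22 was at 52.6% and Kif2c at 51.5% of the LPS level, with replicate 1 close to replicates 2 and 3. Kif11, the motor that pushes spindle poles apart, had 36.4 CPM in LPS+resveratrol replicate 1 and 26.6 and 27.2 CPM in replicates 2 and 3, against 38.4, 36.0 and 43.4 CPM with LPS. Its groups overlapped through replicate 1, and it fell without it (adjusted p = 3.06e-06) and did not pass with it (0.234). Kif20b and Kif4, whose values were chosen after they were seen, were above the LPS libraries in replicate 1, at 30.7 and 23.9 CPM. Without replicate 1 they were at 53.0% and 67.0% of the LPS level. Kif4 shares 15.1% of its exon bases with Pdzd11 on the opposite strand.

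The midzone and cytokinesis genes build the central spindle and the cleavage furrow: 2 of 5 fell with 6 libraries and 5 of 5 with 5. Kif20a, a midzone kinesin, had 13.7, 12.2 and 10.3 CPM with LPS+resveratrol, against 22.98, 21.0 and 22.4 CPM with LPS (54.6% of the LPS level, edgeR adjusted p = 0.0338). Of its exon bases, 29.3% overlap Cdc23 on the opposite strand. Ect2, the exchange factor that turns on RhoA at the furrow, had 12.9, 11.9 and 9.33 CPM with LPS+resveratrol, against 21.2, 19.9 and 19.1 CPM with LPS (56.8%, adjusted p = 0.0491). Neither gene overlapped between groups. Kif23, a motor of centralspindlin, had 43.7 CPM in LPS+resveratrol replicate 1 and 23.9 and 23.2 CPM in replicates 2 and 3, against 36.3, 35.3 and 36.2 CPM with LPS (adjusted p = 0.593 with 6 libraries, 1.93e-07 with 5). Prc1, which bundles midzone microtubules, and Anln, a furrow scaffold, were at 51.4% and 60.1% without replicate 1, and 11.1% of the Prc1 exon bases overlap Rccd1 on the opposite strand.

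Among the other spindle microtubule proteins, 0 of 6 passed with 6 libraries and 4 fell with 5. In edgeR with 6 libraries, 2 of them and 2682 of all 13468 tested genes had an unadjusted p under 0.05. Ckap2, a microtubule stabiliser, had 7.55, 5.34 and 4.84 CPM with LPS+resveratrol, against 9.97, 10.4 and 9.11 CPM with LPS (edgeR adjusted p = 0.113 with 6 libraries, 4.44e-06 with 5). Nusap1, which links microtubules near chromosomes, had 41.3 CPM in LPS+resveratrol replicate 1 and 26.6 and 24.7 CPM in replicates 2 and 3, against 42.04, 40.6 and 38.1 CPM with LPS (adjusted p = 0.332 and 5.48e-08). Ckap2l and Dlgap5 fell to 61.6% and 62.5% of the LPS level without replicate 1. Psrc1 and Gtse1 did not pass in either fit, with log2 fold changes of -0.31 ± 0.328 and 0.11 ± 0.124 without replicate 1; Psrc1 had among the fewest counts, and its LPS libraries ran from 1.079 to 2.61 CPM.

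All 6 genes of chromosome structure were higher in LPS+resveratrol replicate 1 than in the mean of replicates 2 and 3. Of these, 0 of 6 passed with 6 libraries and 6 of 6 fell with 5. In edgeR with 6 libraries, 1 of them and 2682 of all 13468 tested genes had an unadjusted p under 0.05. Mki67, the Ki-67 protein that coats mitotic chromosomes, had 597 CPM in LPS+resveratrol replicate 1 and 259 and 238 CPM in replicates 2 and 3, against 320, 325 and 316 CPM with LPS. Its log2 fold change was 0.19 ± 0.335 with 6 libraries (edgeR adjusted p = 0.780) and -0.37 ± 0.0537 with 5 (adjusted p = 9.36e-07). The sign thus turned on 1 library. Ncapd2, a condensin subunit, had 56.9, 50.8 and 48.5 CPM with LPS+resveratrol, against 64.9, 61.5 and 59.7 CPM with LPS (adjusted p = 0.251 with 6 libraries, 0.000412 with 5). The condensin subunits Smc2 and Smc4, the topoisomerase Top2a and Cdca2, which brings a phosphatase to chromatin, all fell without replicate 1, to between 71.4% and 85.2% of the LPS level, and none of them passed with it. The median log2 fold change of these 6 genes without replicate 1 was -0.34, against -1.64 for the 3 genes of the anaphase-promoting complex and -1.06 for the 6 mitotic kinases and partners; these differences between roles were not tested.

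Pif1, a DNA helicase of the nucleus and mitochondria, had the smallest share of its LPS level among the members. It had 1.53, 1.78 and 1.73 CPM in LPS+resveratrol libraries, against 7.84, 7.66 and 8.74 CPM in LPS libraries, or 20.9% (log2 fold change -2.26 ± 0.166, edgeR adjusted p = 0.0106). Replicate 1 did not stand apart here. Cdca3, named in Xenopus as a trigger of mitotic entry, had 15.3, 16.3 and 13.2 CPM with LPS+resveratrol, against 22.98, 23.2 and 21.3 CPM with LPS (adjusted p = 0.0692 with 6 libraries, 1.02e-05 with 5).

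The deviation of LPS+resveratrol replicate 1 ran with transcript length. Of the 12 members whose longest annotated transcript is under 2 kb, 3 were higher in replicate 1 than in the mean of replicates 2 and 3. The median difference of the 12 was -0.31 log2 units, against -0.53 over 2899 tested genes of that length. Tested genes compared here had a mean CPM at least that of the lowest member. Of the 26 members of 2 to 4 kb, 18 were higher (median 0.29, against 0.01 over 4160 such tested genes). Of the 17 members of at least 4 kb, 15 were higher (median 0.54, against 0.34). Across the 55 members Spearman's rho was 0.609, as a description of genes that share the same libraries. Cks2 at -1.39, Cdk1 at -1.12 and Cks1b at -0.98 lay lowest, while Kif20b at 1.30, Mki67 at 1.26 and Cenpe at 1.17 lay highest. With offsets for gene length and GC content in each library, 28 members fell with all 6 libraries, while genes that fell over the whole table numbered 443, against 157 without offsets.

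**Figure D4:**
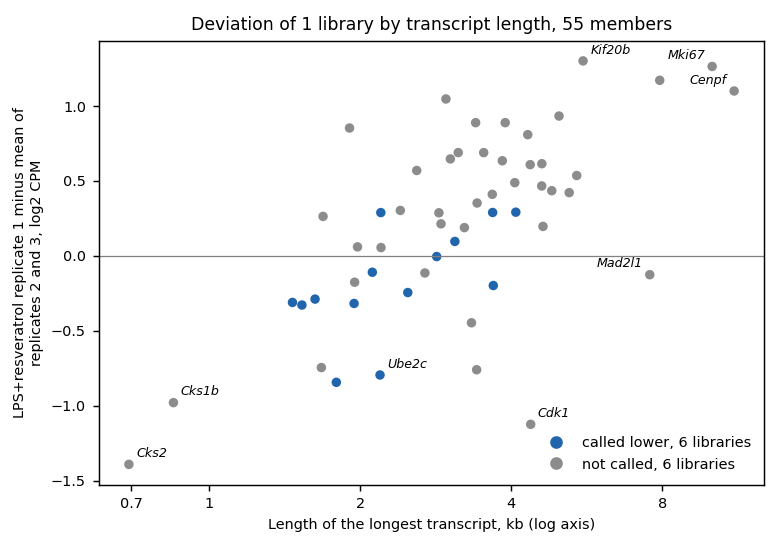
Difference between LPS+resveratrol replicate 1 and the mean of LPS+resveratrol replicates 2 and 3, in log2 CPM, against the length of the longest annotated transcript in kb (log axis) for the 55 members. Blue points are the 14 members that fell with 6 libraries, and grey points are the rest. Points over 4 kb lie mostly above 0, and points under 2 kb mostly below.

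Other genes of the cell cycle were read from the same fits, in lists that were also chosen with earlier results of these data known. Beside the list counts that follow, 1.17% of all tested genes fell and 0.668% rose with 6 libraries. With 5 libraries, 13.3% fell and 12.1% rose. Of 48 further G2 and mitosis genes, 5 fell and 0 rose with 6 libraries, and 32 fell and 2 rose with 5; the medians were -0.34 and -0.40. The 5 were Cdkn3, a phosphatase that acts on CDKs (-1.42, edgeR adjusted p = 0.0271), Pimreg (-1.25, 0.0487), the spindle proteins Troap (-1.21, 0.0284) and Spag5 (-0.61, 0.0489), and Depdc1a (-0.84, 0.0498). Cdkn3 had 3.61, 5.18 and 5.20 CPM with LPS+resveratrol, against 12.2, 14.4 and 10.8 CPM with LPS.

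Of 45 genes of S phase and DNA replication, 3 rose and 0 fell with 6 libraries and 25 rose and 0 fell with 5, with medians of 0.36 and 0.37. Lig1, the ligase that joins Okazaki fragments, had 32.1, 32.2 and 33.7 CPM with LPS+resveratrol, against 21.1, 18.9 and 19.95 CPM with LPS (log2 fold change 0.71, edgeR adjusted p = 0.0284). Slbp, which binds histone mRNA, had 54.7, 53.1 and 52.1 CPM with LPS+resveratrol, against 35.8, 36.9 and 34.9 CPM with LPS (0.57, adjusted p = 0.0368). Prim1, the primase subunit, rose by 0.74 on the log2 scale (adjusted p = 0.0474), and Tyms, thymidylate synthase, had 0.62 in both fits (adjusted p = 0.0705 with 6 libraries, 0.000709 with 5). For Lig1 and Slbp all 3 LPS+resveratrol libraries were high and the groups did not overlap.

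Of 17 genes for G1 cyclins, CDKs and CDK inhibitors, 14 were tested, and 3 rose and 1 fell with 6 libraries, while 5 rose and 4 fell with 5. The E-type cyclins of the G1 to S step rose: Ccne2 had 15.8, 14.4 and 13.3 CPM with LPS+resveratrol, against 6.97, 6.42 and 5.92 CPM with LPS (log2 fold change 1.17, edgeR adjusted p = 0.0229), and Ccne1 rose by 1.15 on the log2 scale (adjusted p = 0.0312). Cdkn1a, the CDK inhibitor p21, had 47.2, 58.4 and 66.6 CPM with LPS+resveratrol, against 31.3, 32.4 and 29.9 CPM with LPS (0.88, adjusted p = 0.0366). Ccnd2, a D-type cyclin, fell by 0.63 on the log2 scale (adjusted p = 0.0469).

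Of 21 genes for DREAM, MuvB, B-MYB, FOXM1 and their partners, 0 passed with 6 libraries, and 3 fell and 7 rose with 5. Over all tested genes 13.3% fell and 12.1% rose with 5. In edgeR with 6 libraries, 7 of the 21 and 2682 of all 13468 tested genes had an unadjusted p under 0.05. Foxm1 had 24.7, 18.7 and 16.2 CPM with LPS+resveratrol, against 24.9, 25.6 and 23.4 CPM with LPS, and fell without replicate 1 (log2 fold change -0.51, adjusted p = 6.49e-05; -0.31 and 0.343 with it). Mybl2, which encodes B-MYB, had 13.4, 13.01 and 15.3 CPM with LPS+resveratrol, against 9.04, 11.2 and 8.74 CPM with LPS, and rose without replicate 1 (0.55, adjusted p = 0.000898; 0.53 and 0.128 with it). E2f7, a repressor of the E2F family, had 14.7, 11.2 and 7.595 CPM with LPS+resveratrol, against 5.66, 4.64 and 5.18 CPM with LPS (1.11, adjusted p = 0.0807 with 6 libraries; 0.85, 0.000146 with 5). Of the genes for NF-Y, Nfya had 156, 112 and 111 CPM with LPS+resveratrol, against 89.7, 87.4 and 83.8 CPM with LPS, and rose without replicate 1 (0.35, adjusted p = 3.94e-06; 0.54 and 0.126 with it). Nfyc, chosen after its values were seen, fell without replicate 1 (-0.43, adjusted p = 0.000829; -0.25 and 0.431 with it), and Nfyb did not pass in either fit. Tfdp2, which encodes a partner of E2F factors, rose without replicate 1 (0.64, adjusted p = 0.000864; 0.70 and 0.0834 with it). The DREAM subunits Rbl1, Rbl2 and E2f4 did not pass in either fit.

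**Figure D5:**
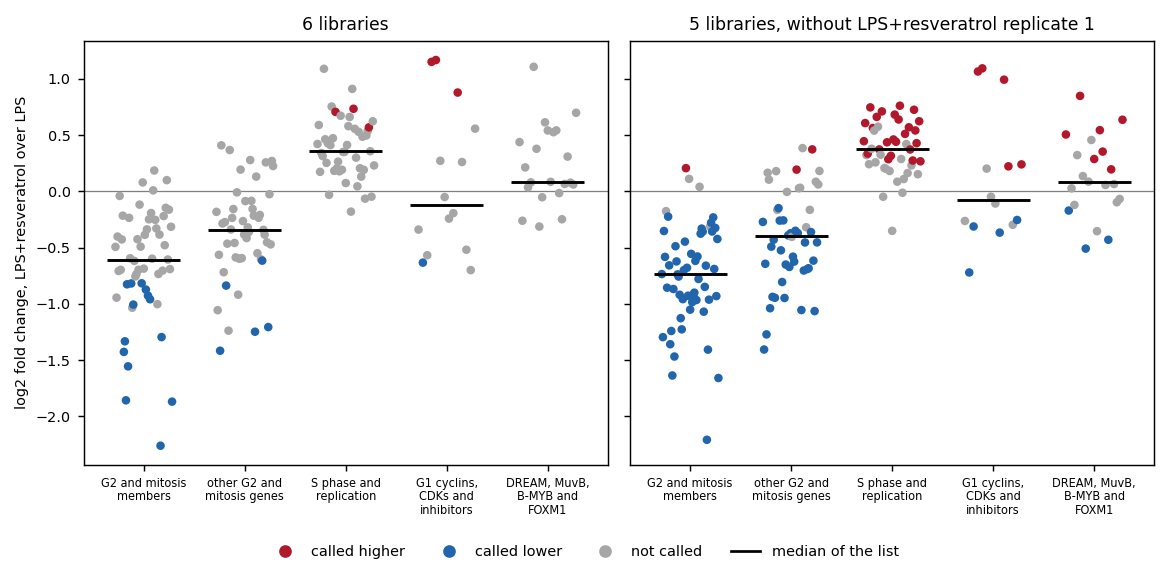
Log2 fold change of LPS+resveratrol over LPS for each tested gene of 5 lists, with 6 libraries (left) and without LPS+resveratrol replicate 1 (right); red points rose, blue points fell, grey points did not pass, and bars are list medians. The members' median is -0.60 at the left and -0.73 at the right, and that of S phase genes is 0.36 and 0.37.

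Markers of neutrophil precursors and of other cell types also differed between the groups, and their part in the lower levels of the members was not tested. Beside the marker counts given without replicate 1, 13.3% of all tested genes fell and 12.1% rose. The 8 markers of neutrophil precursors at the primary granule stage summed to 195, 339 and 338 CPM with LPS+resveratrol, against 407, 455 and 412 CPM with LPS, so the groups did not overlap. All of them but Mpo were lower in replicate 1 than in replicates 2 and 3. The deviation of replicate 1 with transcript length, described above, was not removed from this or any other marker sum. Mpo, myeloperoxidase, had 62.1, 58.9 and 60.8 CPM with LPS+resveratrol, against 87.1, 101 and 97.0 CPM with LPS (log2 fold change -0.65, edgeR adjusted p = 0.0338). Without replicate 1, 6 of the 8 fell (Mpo, Elane, Ctsg, Prtn3, Ms4a3 and Nkg7), Cebpa rose and Gfi1 did not pass. The 8 markers of the secondary granule stage, such as Ngp and Lcn2, summed to 43879, 57171 and 58851 CPM with LPS+resveratrol, against 49296, 50913 and 46179 CPM with LPS. Their calls differed in direction: without replicate 1, 4 rose (Ngp, Lcn2, Ltf and Camp) and 1 fell (Chil3, log2 fold change -0.55, adjusted p = 4.2e-12). The 10 markers of mature neutrophils summed to 22440, 45014 and 45016 CPM with LPS+resveratrol, against 41213, 42428 and 39617 CPM with LPS. Without replicate 1, 4 of them rose: Ly6g, the surface protein of the sort (0.72, adjusted p = 1.58e-13), Mmp8, Mmp9 and S100a8. With 6 libraries none of these 10 or of the 8 secondary granule markers passed in edgeR. The marker genes that passed were named after their values were seen. Stem and progenitor markers (7 genes, Kit and Gata2 the most abundant) summed to 63.1, 55.7 and 56.3 CPM with LPS+resveratrol, against 66.5, 65.1 and 68.6 CPM with LPS.

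Markers of other lineages were detected as well, and no listed marker was at 0 in all libraries. Erythroid markers (10 genes, led by Hbb-bs and Hba-a1) summed to 14.3, 63.5 and 94.6 CPM with LPS+resveratrol, against 73.6 to 90.8 CPM with LPS, and those groups overlapped. B lineage markers (10 genes, led by Pax5 and Cd79a) summed to 150 to 184 CPM with LPS+resveratrol, against 188 to 201 CPM with LPS. Without replicate 1, 3 of them fell in edgeR (Pax5, Ebf1 and Ms4a1) and 1, Rag1, rose. Dendritic markers (8 genes, led by Bst2 and H2-Ab1) summed to 72.7, 132 and 138 CPM with LPS+resveratrol, against 169 to 190 CPM with LPS. Bst2 alone had 24.5, 69.0 and 73.8 CPM, against 99.5, 113 and 116 CPM with LPS. Without replicate 1, 3 fell in edgeR (Bst2, H2-Ab1 and Xcr1) and 0 rose, while Siglech, Flt3, Zbtb46 and Clec9a did not pass. The list median against the LPS mean was -0.34, -0.04 and -0.21 log2 units in LPS+resveratrol replicates 1, 2 and 3. Eosinophil, basophil and mast cell markers (8 genes, led by Prg2 and Mcpt8) summed to 80.1 to 117 CPM, against 128 to 133 CPM with LPS. T and NK markers (8 genes, led by Cd2 and Lck) summed to 11.6 to 12.2 CPM, against 13.8 to 15.4 CPM with LPS, and those of megakaryocytes and platelets (6 genes, led by Itga2b and Pf4) to 9.63 to 18.1 CPM, against 18.03 to 22.3 CPM with LPS. Monocyte and macrophage markers (9 genes, led by Adgre1 and Csf1r) summed to 2522, 2778 and 2737 CPM with LPS+resveratrol, against 2586 to 2631 CPM with LPS. Adgre1 rose without replicate 1 (log2 fold change 0.46, edgeR adjusted p = 1.14e-09), while 5 of the 9 fell (Csf1r, Ly6c2, Cx3cr1, Ccr2 and F13a1), and the median of the list against the LPS mean was -0.15, -0.17 and -0.28 log2 units in LPS+resveratrol replicates 1, 2 and 3.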

How the data were processed

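RNA was measured by sequencing in 6 samples, 3 LPS+resveratrol and 3 LPS. The authors deposited raw counts as whole numbers, 1 row per Ensembl gene ID and 1 column per library. The submitters' processing notes name Bowtie 0.12.2 and the build mm8. Which program and annotation gave the counts, and whether strand was used, is not given in the sources used here. Of 25663 IDs, 25595 were matched to a symbol. Gene lengths and exon overlaps came from GENCODE M21 and promoters from RefSeq. CPM were computed from the counts with TMM scaling. The groups were compared with edgeR 4.0.16 (quasi-likelihood F test, two-sided, R 4.3.3) over 13468 genes kept by a minimum count of 10, with Benjamini-Hochberg adjustment over all of them and a threshold of 0.05; the 5-library fit used the same genes. The spread between replicates, as edgeR's common biological coefficient of variation, was 19.8% with 6 libraries and 7.43% with 5. The steps were also run on simulated counts in which no library stood apart. That run therefore cannot show how the fits behave with a library such as LPS+resveratrol replicate 1. The alternatives were DESeq2 1.42.0, limma 3.58.1 (voom, with and without sample quality weights), other scalings and filters, length and GC offsets, a replicate block, and leaving out each library. The members and all lists were chosen with earlier results of these data known. Given per library were members that passed with 6 libraries, in each role the member with the smallest adjusted p and that with the highest mean CPM; others are marked as chosen after their values were seen. Named outside the members, in part with values per library, were up to 4 genes of each list with the smallest adjusted p and 6 fixed genes. Depdc1a, Cdc25a, Nfyb and Nfyc were named besides these, after their values were seen.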

Additional observations from a re-analysis of the deposited data

How the results depend on the processing

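The 14 members that fell with 6 libraries kept a negative log2 fold change under every alternative run, but whether they passed depended on the libraries. The count of members that fell with 6 libraries was 26 with DESeq2, 48 with limma-voom and sample quality weights (weight 0.0726 for LPS+resveratrol replicate 1, 1.58 to 1.84 for the others), 28 with length and GC offsets and 0 with the replicate block; limma-voom and the other scalings and filters gave 14 to 20. With the replicate block 37 members had an unadjusted p under 0.05 and the 14 had adjusted p of 0.0996 to 0.128. Deviations of same-numbered libraries from their group means correlated at 0.0195, -0.0167 and 0.000425. LPS+resveratrol replicate 1 enters the mean behind every deviation of its group, so these values cannot show whether the samples were paired. Leaving out 1 library gave 0 to 50 members that fell (50 only without LPS+resveratrol replicate 1) and 0 to 1 that rose; without any other library the 14 had adjusted p of 0.0557 to 0.267. Over all genes, the 157 that fell and 90 that rose became 450 and 370 with DESeq2, 239 and 153 without a filter, 1536 and 1489 with quality weights, 443 and 374 with offsets, 0 and 0 with the replicate block (2287 at an unadjusted p under 0.05), and 0 to 1786 and 0 to 1634 with 1 library left out. With 5 libraries, leaving out 1 more gave 43 to 49 members that fell, 0 to 1 that rose (0 without LPS+resveratrol replicate 2 or 3, where the lone library is assumed to vary like the LPS group), and 1183 to 1768 and 914 to 1532 over all genes. Signs turned for members and regulators that did not pass with 6 libraries. In the order quality weights then offsets, log2 fold changes were 0.19 and 0.0067 for Cks2, -0.21 and -0.080 for Smc4, -0.34 and -0.14 for Mki67, and -0.077 and -0.079 for Rbl2; Mad2l1 was -0.21 with offsets, -0.025 with unscaled totals and -0.0057 without a filter; E2f4 was -0.10 with quality weights and -0.00099 with unscaled totals. With 1 library left out, log2 fold changes ran from -0.33 to 0.21 for Cks2, -0.17 to 0.048 for Bub1, -0.036 to 0.042 for Mad2l1, -0.58 to 0.0013 for Kif4, -0.043 to 0.14 for Gtse1, -0.54 to 0.020 for Psrc1, -0.23 to 0.23 for Smc4, -0.37 to 0.39 for Mki67, -0.12 to 0.11 for E2f4 and -0.096 to 0.18 for Rbl2. Apart from what the construction of these fits shows, the cause was not tested. The narrower promoter window left 35 members with CCAAT and 34 with a CHR. With 3 libraries a group and 1 that stands apart, the spread between libraries (19.8%, against 7.43% without it) limits what the 6-library fit can call, and the fit without it rests on 2 LPS+resveratrol libraries.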
